A study of Arabidopsis thaliana with 18 samples.

Results

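Mock treated leaves of the Arabidopsis thaliana mutant sid2-2 were compared with mock treated leaves of the quadruple mutant tga2tga3tga5tga6, called 4tga below. The arrays were chosen by their labels: the 3 sid2-2 mock arrays and the 3 4tga mock arrays, 6 of 18 in the study. The remaining arrays held mock treated wild type plants of ecotype Col0 (n = 3) and the same 3 genotypes after a spray with the herbicide safeners mefenpyr (5 mM) and isoxadifen (7.2 mM), again with n = 3 per group. Plants were kept on soil under 16 h of light a day, and rosette leaves were harvested at an age of 4 weeks. Mock plants received an equal volume of the safeners' solvent, DMSO, and whether their spray also held the emulsifier of the safener formulation is not given in the sources used here. The ecotype of the mutants, the time from spray to harvest and the number of plants pooled per sample are not given either. The labels call the 3 samples of a group biological replicates. A p-value here sets a difference against the spread between replicate samples, which was estimated from all 6 groups (18 arrays) and not from the 6 compared arrays alone.

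Salicylic acid is a plant hormone of defence against pathogens, and ICS1 (isochorismate synthase), the gene disrupted in sid2-2, makes most of the salicylic acid that accumulates under stress. TGA factors are bZIP transcription factors. They bind the salicylic acid co-activator NPR1 at promoters of pathogenesis-related genes, and with the GRAS protein SCL14 they also act at promoters of genes that detoxify foreign chemicals. Both mutants are thus impaired in salicylic acid responses, by loss of the hormone in sid2-2 and by loss of transcription factors in 4tga, and the comparison asks what separates these losses in leaves that received no safener. The disrupted genes themselves are not named in the probe annotation used, so the genotype labels were not checked against them.

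Transcript levels were read from Affymetrix ATH1 arrays, which carry 22746 probe sets for Arabidopsis transcripts besides controls. Values are intensities on a linear scale, with the median of each array at 200, and between 15518 and 16408 probe sets were listed with a value on each of the 6 arrays. Blank entries were treated as missing. Replicate 3 of mock sid2-2 stood apart from its group. It correlated with the other sid2-2 arrays at r = 0.979 to 0.982 across probe sets, against r = 0.994 between replicates 1 and 2 and r = 0.992 to 0.993 within mock 4tga, and results are therefore also given without it. The leaf genes RCA (Rubisco activase) and LHCB4.2 (an antenna protein) were bright on all 6 arrays, at 4429.9 to 5546 and 2749 to 3633. The root marker PYK10 (log2 difference 0.18), the guard cell marker FMA (-0.00094) and the phloem sucrose transporter SWEET11 (-0.02) were not called different. In whole leaves fewer cells of a type and less RNA per cell cannot be told apart.

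Differences are given as log2 of sid2-2 over 4tga, so that a positive value means a higher level in sid2-2, with the standard error (SE) from a limma model of all 18 arrays. A probe set was tested where each mutant had at least 2 listed values and was called at a Benjamini-Hochberg adjusted p under 0.05. Of 15340 probe sets tested, 1703 (11.1%) were called, with 916 (5.97%) higher and 787 (5.13%) lower in sid2-2. Calls of at least 2-fold were as frequent in either direction, with 92 higher (0.600%) and 94 lower (0.613%). The median difference over all probe sets tested was 0.04. Without sid2-2 replicate 3 the counts were 574 higher and 810 lower, so that the excess of higher calls was not seen without that array. Leaving out a 4tga array lowered both counts, to 486 and 478 without replicate 1, 589 and 608 without replicate 2, and 617 and 485 without replicate 3. Of the calls with all arrays, 519 higher and 598 lower were also called, in the same direction, without sid2-2 replicate 3. The plot of the levels in both mutants shows that the differences of largest size among named genes were increases in sid2-2. A single gene was named for 47 of the 2-fold higher and 38 of the 2-fold lower probe sets. Probe sets without an annotation entry, 42 and 53 of these, are counted here and not described. They include the largest difference in each direction (4.35 and -5.68).

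**Figure D1:**
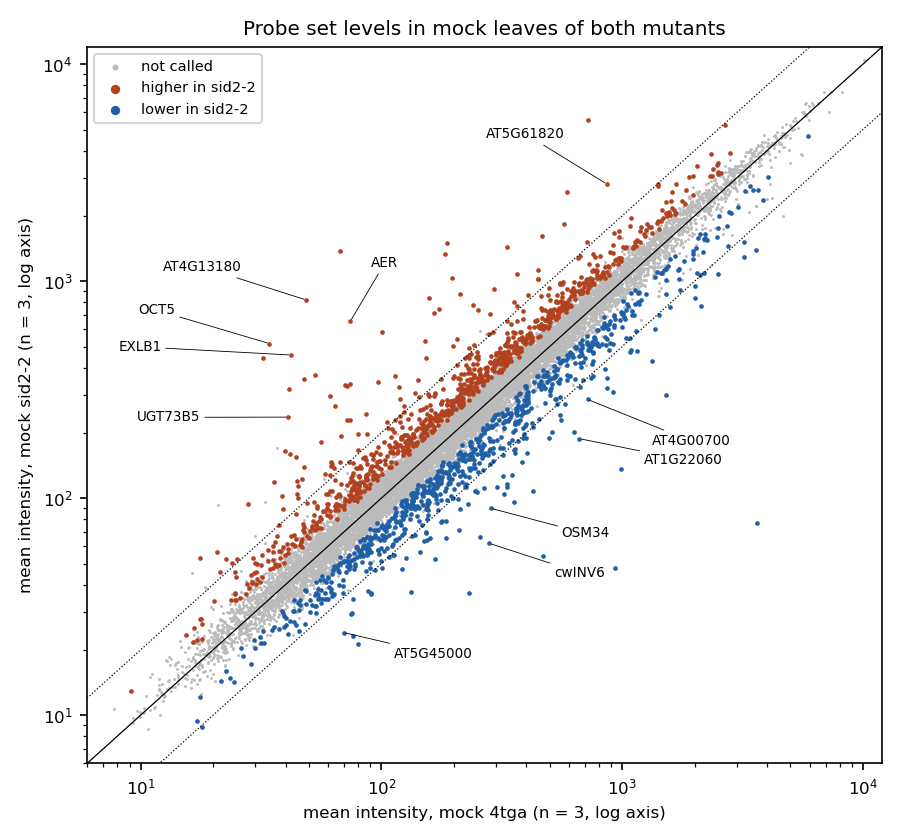
Mean intensity of each tested probe set in mock 4tga (x axis) and mock sid2-2 (y axis), both on log axes, with n = 3 arrays per group, or the 2 with a value where 1 was blank. Red and blue points are called higher (916) and lower (787) in sid2-2, grey points are not called, the solid line marks equal levels and the dotted lines mark 2-fold differences. AT4G13180, OCT5, EXLB1 and AER lie far above the line, and cwINV6 and AT1G22060 lie below it.

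Most measured genes of the xenobiotic response were higher in sid2-2. The list used, of genes known to depend on SCL14 or TGA factors in that response, held 25 genes, 12 of them in the annotation, and was written with earlier results of these arrays known, so its direction is not independent evidence. Of 10 members tested, 8 were called higher in sid2-2 and 0 lower, with a median log2 difference of 1.92 against 0.05 over all 8282 genes tested. Among probe sets of 1 gene 5.82% were called higher and 4.60% lower. The 2 other annotated members, GSTU25 and UGT73B4, were listed on every sid2-2 array and on no 4tga array. Without sid2-2 replicate 3 the list median was 1.88.

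AT4G13180, AER and AT1G09500, all reductases, had the largest differences of this list. AT4G13180, a short-chain dehydrogenase/reductase, had intensities of 743, 823 and 894 in sid2-2 and 45, 50.2 and 50.8 in 4tga, against 675, 488 and 639 in wild type. The 4tga arrays stood apart below the others, and the mutants differed 16.8-fold (log2 4.07, SE 0.14, limma adjusted p = 2.36e-13). AER, the alkenal reductase that acts on reactive products of lipid peroxidation, was at 558, 594 and 815 in sid2-2. In 4tga it was listed on 2 arrays, at 71.4 and 77.5, and in wild type it lay between the mutants at 319.6, 276 and 262 (log2 between mutants 3.12, SE 0.15, 8.69-fold, adjusted p = 4.16e-10). AT1G09500, a reductase of the cinnamyl alcohol dehydrogenase-like family, followed another pattern. Its sid2-2 arrays were high at 303, 339 and 470.1, while 4tga at 50.0, 42.1 and 67.5 and wild type at 80.5, 49.6 and 73.4 overlapped (log2 between mutants 2.80, SE 0.19). The aldehyde reductase AT3G04000 differed less, at 218, 331 and 365 in sid2-2 and 151, 121 and 141 in 4tga (log2 1.12).

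The neighbours of AER in the RefSeq gene order, AT5G16960 and AT5G16980, were looked at after the values were seen. Both were listed on the 3 sid2-2 arrays (51.1 to 94.5 and 53.9 to 83.6) and on no 4tga array. The 3 genes are adjacent on chromosome 5, and cross-hybridization between neighbours of similar sequence was not tested.

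Glucosyltransferases of the UGT family attach glucose to hormones, defence compounds and foreign chemicals. Of 28 members tested, picked by gene symbol, 9 were called higher in sid2-2 and 0 lower, and the family median was 0.15. Glycosyltransferase genes with other symbols are not in this count. Among them UF3GT, given with the flavonoid genes below, was called lower (log2 -0.62). Of all probe sets of 1 gene, 5.82% were called higher and 4.60% lower. UGT73B5 was at 224, 218 and 268 in sid2-2, 38.7, 38 and 46.5 in 4tga and 94.7, 111 and 93.8 in wild type, so that the 3 genotypes did not overlap (log2 between mutants 2.52, SE 0.15, 5.75-fold, adjusted p = 9.11e-10). UGT73C1 was high in sid2-2 alone, at 135, 163 and 195 against 37.1, 40.7 and 41.7 in 4tga and 46, 31.7 and 40.2 in wild type (log2 2.03). UGT74D1, which acts on auxins, was at 246, 236 and 204 in sid2-2 and 64.9, 66.5 and 84.3 in 4tga (log2 1.68, SE 0.20). The further members called were UGT84A3 (log2 0.98), UGT76E12 (0.83), UGT71C3 (0.81), UGT76E11 (0.78), UGT76C2 (0.53), a glucosyltransferase of cytokinins, and UGT72E1 (0.43), which acts on monolignols. UGT76E12, UGT71C3 and UGT72E1 lost the call when particular arrays were left out (adjusted p of up to 0.145). IAGLU, which glucosylates the auxin indole-3-acetic acid and was not counted in the family by its symbol, gave 168, 166 and 145 in sid2-2, 43.7, 40.0 and 41.8 in 4tga and 86.3, 91.2 and 106 in wild type (log2 1.93, SE 0.17).

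UGT73B4 and UGT73B1 were listed in sid2-2 and on no 4tga array. UGT73B4, adjacent to UGT73B5, was listed at 130.1, 87.5 and 156 in sid2-2 and on 1 wild type array at 42.8. UGT73B1 was listed at 131, 149 and 74.8 in sid2-2 and on all wild type arrays (101 to 119.7). No fold is given for genes listed in a single mutant, since blanks carry no level.

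Glutathione transferases couple electrophilic compounds to glutathione. GSTU25, a tau class member, was listed at 338, 241 and 726 in sid2-2 and at 151, 219 and 124 in wild type, and was blank on every 4tga array. Sid2-2 replicate 3 had the highest value. GSTU22, another tau member looked at after the values were seen, was also blank on every 4tga array. It was listed at 51.1, 46.8 and 107 in sid2-2 and at 50.4, 61.2 and 45.6 in wild type. Of 7 tau members with a test, GSTU16 was higher in sid2-2 (log2 0.58, SE 0.10) and GSTU27 lower (-0.42, SE 0.10), and the median was 0.05. Of all probe sets of 1 gene, 5.82% were called higher and 4.60% lower. The phi member GSTF4 was at log2 0.17 and was not called. GR1, a glutathione reductase that regenerates glutathione, was at 1435, 1368 and 2209 in sid2-2 and 948, 885 and 944 in 4tga. Replicate 3 of sid2-2 was again the highest, and the log2 difference was 0.82 with it and 0.60 without it. AT4G19880, a glutathione transferase family gene chosen after its values were seen, was at 1016, 1018 and 1214 in sid2-2, 362, 373 and 366 in 4tga and 671, 753 and 719.9 in wild type (log2 1.56).

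Cytochrome P450 enzymes oxidize hormones, defence compounds and herbicides. Of 16 members tested, 3 were higher and 2 lower in sid2-2, where 5.82% and 4.60% of all probe sets of 1 gene were. CYP71B22 was at 398, 347 and 374 in sid2-2, 231, 214 and 215 in 4tga and 140.2, 129 and 122 in wild type, an order in which no groups overlapped (log2 between mutants 0.76, SE 0.10). CYP71B35 (log2 0.56) and CYP71B36 (0.50) were also higher, and CYP71B23 (-0.40) and CYP84A4 (-0.39) were lower. These 4 calls were lost when any of several single arrays was left out (adjusted p of up to 0.174 for CYP71B36).

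The remaining members of the xenobiotic list are not classical detoxification enzymes. AT4G01870, a TolB-related protein, was at 1692, 1622 and 1514 in sid2-2, 501, 355 and 539.8 in 4tga and 1384, 1768 and 1400.0 in wild type. The 4tga arrays were low, and sid2-2 and wild type overlapped (log2 between mutants 1.81, SE 0.17). AT5G61820, a stress up-regulated Nod 19 protein, was at 2560.3, 2653 and 3209 in sid2-2, 877, 753 and 957 in 4tga and 1669, 1638 and 1483 in wild type (log2 1.70, SE 0.11). The members not called were the fructokinase AT5G51830 (log2 0.29, adjusted p = 0.245) and the GRAS family gene AT1G07520 (0.04, adjusted p = 0.887).

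OCT5 and EXLB1 followed AT4G13180 in size among the named increases. OCT5, an organic cation transporter, was at 487, 511 and 551 in sid2-2, 36.9, 30.02 and 35.9 in 4tga and 219, 203 and 214 in wild type. Wild type lay between the mutants, which differed 15.1-fold (log2 3.92, SE 0.11, adjusted p = 6.54e-14). EXLB1, an expansin-like gene, was at 436, 434 and 501 in sid2-2 and at 44.1 and 40.0 on the 2 4tga arrays with a value, while wild type at 327, 443 and 518 overlapped with sid2-2 (log2 between mutants 3.44, SE 0.15, 10.8-fold). Of 9 expansins tested, 2 were higher and 2 lower, where 5.82% and 4.60% of all probe sets of 1 gene were. Besides EXLB1, EXPA16 (log2 1.06) was higher and EXPA8 (-0.55) and EXPB3 (-0.50) were lower, the last 3 without a call when certain single arrays were left out. EXGT-A3, a xyloglucan endotransglucosylase of wall remodelling, was higher (log2 0.73, SE 0.10) and XTH32 lower (-0.47) among 3 genes of that family. The call of XTH32 was lost without sid2-2 replicate 1 or 4tga replicate 2 or 3. It was also lost with the 6 mutant mock arrays alone, the 9 mock arrays or array weights (adjusted p of up to 0.0796 over these settings). ATPMEPCRB, a pectin methylesterase gene, was chosen after its values were seen. It gave 81.5, 106 and 112 in sid2-2 and 51.8, 40.0 and 42.9 in 4tga, both below wild type at 191, 202 and 176 (log2 between mutants 1.15).

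The plot of intensities by array shows these patterns for 16 genes. AT3G26470, an RPW8 domain gene of the powdery mildew resistance type, was at 228, 259 and 399 in sid2-2, 62.4, 62.5 and 59.6 in 4tga and 153, 159.9 and 133 in wild type (log2 between mutants 2.22, SE 0.15). AT5G05960, a lipid transfer protein family gene, was at 273, 341 and 381, 69.4, 67.7 and 75.8 and 259, 185 and 226 in the same order of genotypes (log2 2.21). AT4G30450, a glycine-rich protein gene, was low in 4tga at 77, 60.3 and 84.7 and stood at 333, 318 and 359 in sid2-2 and 305, 287 and 249 in wild type (log2 2.20). AT1G76600 was at 617, 638 and 894 in sid2-2, 148, 152 and 197 in 4tga and 336, 369 and 357 in wild type (log2 2.1). In these 4 genes 4tga lay below wild type on every array. All 15 of the largest named increases, between log2 1.70 and 4.07, were also called without sid2-2 replicate 3.

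Class III peroxidases, secreted enzymes that use hydrogen peroxide in the cell wall, were found on both sides. AT4G11290 was higher in sid2-2, at 141, 129 and 195 against 47.7, 44 and 41 in 4tga (log2 1.79, SE 0.16). The other peroxidases were chosen after their values were seen. Prx37 was at 261, 276 and 564 in sid2-2 and 141, 91.3 and 109 in 4tga, and its neighbour AT4G08780 at 78.5, 94.2 and 184 against 35.2 and 36.3 on the 2 4tga arrays with a value. For both, sid2-2 replicate 3 was the highest array, and the log2 differences of 1.62 and 1.63 were 1.26 and 1.27 without it. AT4G33420 was higher too (log2 1.53, or 1.24 without that replicate). PRX52, by contrast, was at 38.9, 30.4 and 40.0 in sid2-2, 102, 85.7 and 84 in 4tga and 33.2, 36.1 and 38.6 in wild type (log2 between mutants -1.32), and AT5G51890 at 148, 147 and 177, 313, 310.2 and 340.1 and 131, 187 and 161 (-1.03). For PRX52 and AT5G51890 the 4tga arrays were high and those of sid2-2 and wild type overlapped.

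**Figure D2:**
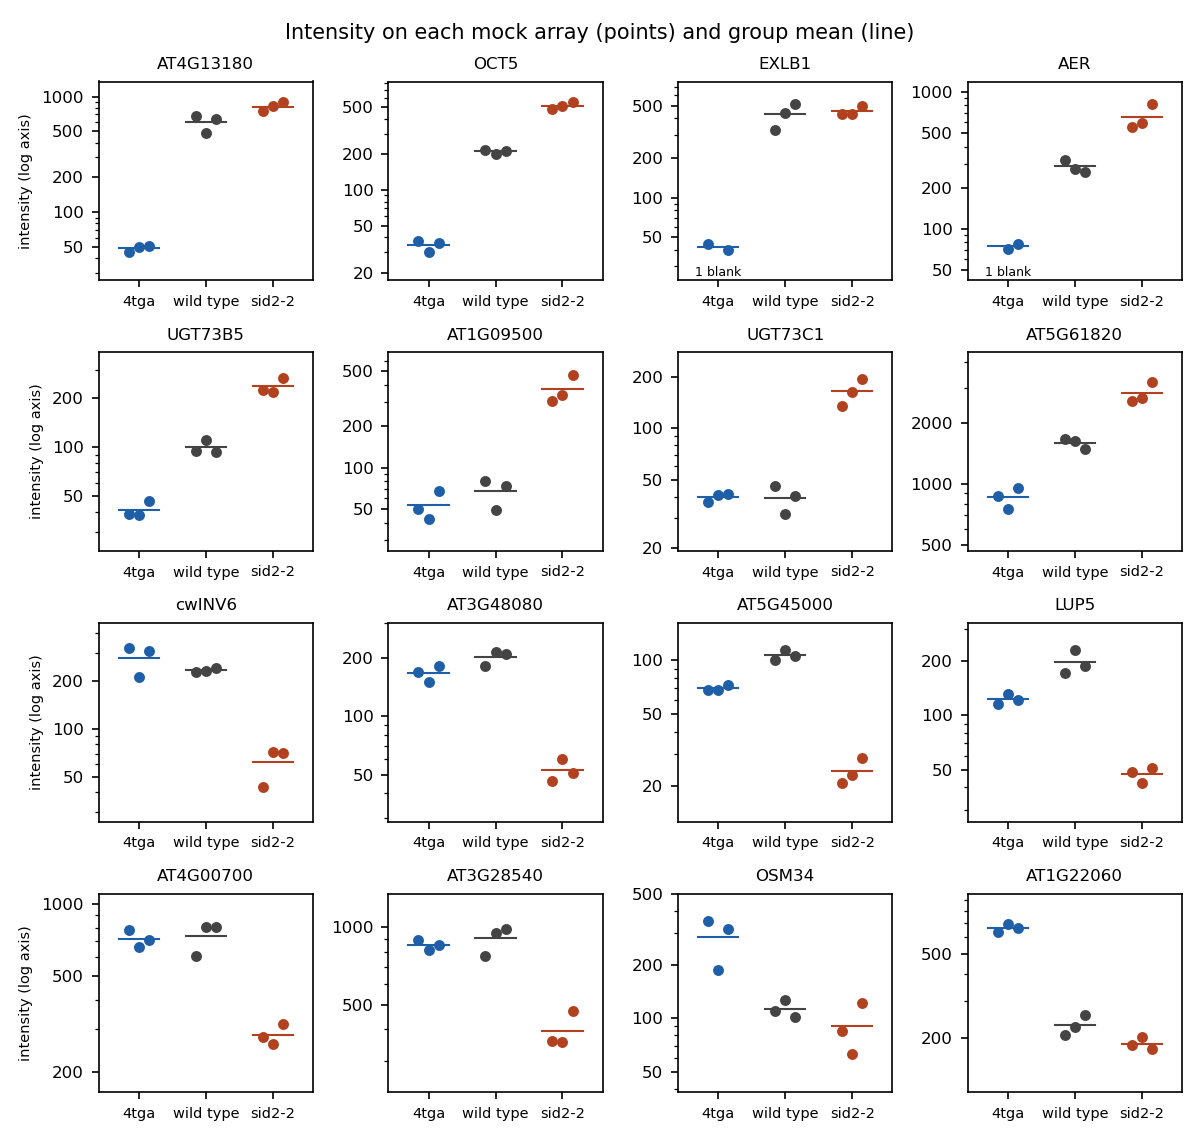
Intensity on each mock array (points, log axis) and group mean (line) of 16 genes in 4tga, wild type and sid2-2, n = 3 arrays per group, with blank entries counted at the foot of a panel. The upper 8 genes are higher in sid2-2 than in 4tga, as AT4G13180 (743 to 894 against 45 to 50.8), and the lower 8 are lower, as cwINV6 (43.4 to 72.1 against 211 to 322.5).

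The few measured genes listed as responsive to salicylic acid were lower in sid2-2 than in 4tga where they were called. Their list was also written with earlier results of these data known, so its direction is not independent evidence. Of the list of pathogenesis-related and salicylic acid responsive genes (24 written, 5 annotated and tested), 4 were called lower in sid2-2 and 0 higher, with a median of -0.78. Of all probe sets of 1 gene, 4.60% were called lower. AT3G28540, an AAA-type ATPase gene, was at 359, 358 and 470.4 in sid2-2, 891, 813 and 852 in 4tga and 775, 951 and 988 in wild type. The 4tga and wild type arrays overlapped and sid2-2 lay below (log2 between mutants -1.12, SE 0.12, adjusted p = 2.23e-06). AT1G35710, a leucine-rich repeat receptor kinase gene, was likewise lowest in sid2-2 (1018, 952 and 876), but wild type (1365, 1885 and 1689.8) lay below 4tga (2069.6, 1895 and 2059) without overlap (log2 between mutants -1.08, SE 0.12). SAL2, an inositol polyphosphate phosphatase gene, was at 322, 380.4 and 499.7 in sid2-2, 606, 737 and 689 in 4tga and 632, 762 and 772 in wild type (log2 -0.78). The transcription factor gene WRKY53 was lowest in sid2-2 (281, 241 and 333), intermediate in 4tga (405, 363 and 424) and highest in wild type (593, 564 and 451), with a log2 of -0.49 between mutants. Its call was lost without sid2-2 replicate 2 or 4tga replicate 1 or 3, and with the 6 mutant mock arrays alone (adjusted p of up to 0.0704).

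GRX480, a glutaredoxin that binds TGA factors, was the exception. It was at 87, 72.8 and 123 in sid2-2 and 70.9, 62.1 and 67.6 in 4tga, both below wild type at 245, 249.8 and 197, and the log2 of 0.46 between mutants was not called (adjusted p = 0.0606; without sid2-2 replicate 2 it was 0.0149).

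Of the list of salicylic acid synthesis and signalling (23 written, 4 annotated), 2 members were tested. SAG101, a lipase-like signalling partner of EDS1 in immunity, was at 162, 224 and 219.9 in sid2-2, 369.9, 354 and 335 in 4tga and 230.0, 320.3 and 265 in wild type, so that sid2-2 was below 4tga on every array (log2 -0.82, SE 0.14, adjusted p = 0.00053). UGT76B1, which glucosylates isoleucic acid as well as salicylic acid, was low in both mutants. It gave 66.4, 65.7 and 133 in sid2-2 and 109, 70.8 and 78.6 in 4tga, which overlapped, against 630.2, 614 and 565 in wild type (log2 between mutants -0.02, adjusted p = 0.956).

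Several of the genes named for the size of their decrease had sid2-2 as the lowest genotype. AT3G48080, a lipase-like gene closely related to EDS1, was at 46.4, 60.0 and 51.2 in sid2-2, 168, 150.3 and 181 in 4tga and 181, 215 and 208 in wild type (log2 between mutants -1.67, SE 0.16, 3.18-fold, adjusted p = 6.25e-07). Whether its probe set also binds the transcript of EDS1 was not tested. AT5G45000, a TIR-NBS-LRR family gene, was at 20.6, 22.9 and 28.6 in sid2-2, 68.7, 68.3 and 72.4 in 4tga and 99.96, 114 and 106 in wild type, 3 levels without overlap (log2 between mutants -1.55). AT4G00700, a C2 domain gene, was at 279, 259.8 and 316 in sid2-2 and overlapped between 4tga (784, 661 and 712) and wild type (606, 801 and 805), with a log2 of -1.33. AT4G34480, a glycosyl hydrolase family 17 gene as are beta-1,3-glucanases, behaved alike at 130.3, 129 and 124, 377, 327 and 347 and 278, 344 and 297 (log2 -1.45). In all 4 of these genes the sid2-2 arrays were the lowest of the 9. AT5G03350, a lectin family gene that responds to salicylic acid, was chosen after its values were seen. It fell in steps from wild type (3466, 3583 and 3610.0) over 4tga (1854, 2118 and 2063) to sid2-2 (869, 870.3 and 759.6), with a log2 of -1.27 between mutants. AT5G52760, a heavy-metal-associated domain gene also chosen afterwards, was at 419.9, 443 and 776 in sid2-2 and 1095, 1001 and 1137 in 4tga (log2 -1.04, or -1.32 without sid2-2 replicate 3, its highest array).

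Among called genes whose mutant arrays did not overlap, the largest decrease with a gene name was that of cwINV6, a cell wall invertase family enzyme that acts as a fructan exohydrolase. It was at 43.4, 72.1 and 70.3 in sid2-2, 322, 211 and 310.1 in 4tga and 229, 232 and 240.4 in wild type, so that 4tga and wild type overlapped (log2 between mutants -2.19, SE 0.18, 4.58-fold, adjusted p = 1.19e-07). Its neighbour in the RefSeq gene order, the glutaredoxin gene AT5G11930, showed another order. It was high in 4tga at 128, 129 and 140.4, and its values in sid2-2 (34 and 40.1 on 2 arrays) and wild type (46.2, 46.9 and 37) overlapped (log2 between mutants -1.84). Without sid2-2 replicate 3 it could not be tested. OSM34, an osmotin-like protein of the thaumatin family, was at 85.1, 62.5 and 122 in sid2-2, 353, 186 and 316 in 4tga and 110.1, 127 and 101 in wild type. Its 4tga arrays were high and spread widely, and sid2-2 and wild type overlapped (log2 -1.67, SE 0.22). AMY1, a secreted alpha-amylase chosen after its values were seen, had the same pattern with a narrow spread, at 200.1, 225 and 263, 560.1, 563 and 556 and 209, 239 and 204 (log2 -1.30).

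Further decreases were those of LUP5, a triterpene synthase (sid2-2 48.5, 42.3 and 51, 4tga 115, 131 and 121, wild type 172, 228 and 188, log2 between mutants -1.38), and of AT5G39520 (sid2-2 77.9, 50.1 and 70.6, 4tga 309, 176 and 284, wild type 298, 304 and 278, log2 -1.94). AT2G04460 (log2 -1.69) and AT4G23880 (-1.34) were also lower in sid2-2. AT1G78410, a VQ motif gene chosen after its values were seen, was at 142, 117 and 123 in sid2-2 and 387, 272 and 305 in 4tga (log2 -1.33), and the purple acid phosphatase gene AT1G13750, chosen likewise, at 241, 283 and 292 and 599, 566 and 579 (-1.10). Of the 15 largest named decreases, between log2 1.33 and 2.19 in size, 14 could be tested without sid2-2 replicate 3 and 12 were then called.

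Jasmonate is a hormone of defence against chewing insects and necrotrophic fungi, and salicylic acid is known to act against parts of its response. Of 4 members tested, 2 plant defensins were called higher in sid2-2 and 0 members lower (median 0.76). Of all probe sets of 1 gene, 5.82% were called higher. PDF1.2 was at 4868, 4955 and 5958 in sid2-2 and 2142, 2918 and 2963 in 4tga, both far above wild type at 258, 226 and 277 (log2 between mutants 0.99, SE 0.28, adjusted p = 0.03). The call was lost when any 1 of 5 of the 6 arrays was left out (adjusted p of up to 0.134), and sid2-2 replicate 1 was the one that could be spared. PDF1.2b was at 2108, 2304 and 3996 and 1233, 1454 and 1549.8 (log2 0.93), with replicate 3 the highest, and its probe set is of a kind that may bind other transcripts, so the 2 defensins may not be separate measurements. The call of PDF1.2b was kept under every setting tried. JMT, which makes methyl jasmonate, had a log2 of 0.59 (adjusted p = 0.0618) and the thionin THI2.1 one of -0.19 (adjusted p = 0.666). The higher level of the defensins was not called again in safener-treated plants. There 0 of the 4 members were called higher in sid2-2 and 1, THI2.1, lower, with a median of 0.13. Of all probe sets in that comparison, 7.90% were called higher and 7.58% lower.

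**Figure D3:**
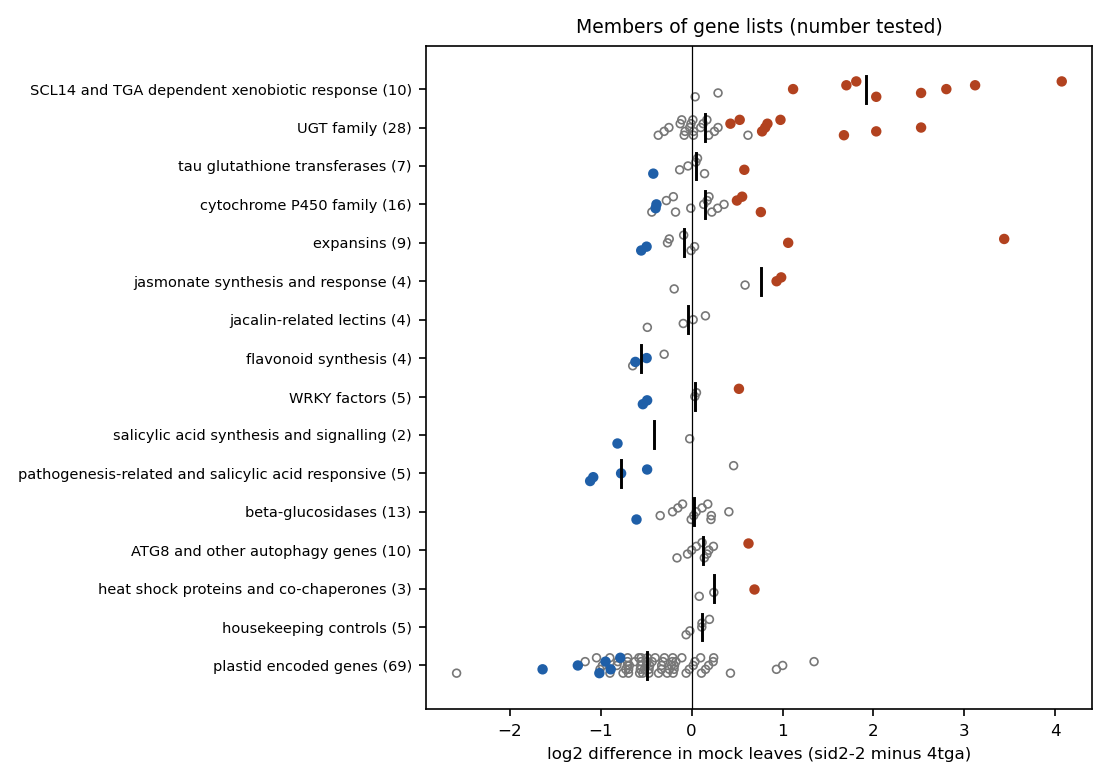
Log2 difference between mock sid2-2 and mock 4tga (x axis) of each tested member of 16 gene lists, with the number tested in brackets and a bar at the list median. Filled points are called at an adjusted p under 0.05 (red higher, blue lower in sid2-2) and open points are not. The xenobiotic list has its median at 1.92, the salicylic acid responsive list at -0.78 and the housekeeping controls at 0.11.

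The other lists are shown in the plot of list members. Of all probe sets of 1 gene, 5.82% were called higher and 4.60% lower, and the small counts below are not read as results about the lists. Of 4 flavonoid genes, the anthocyanin glycosyltransferase UF3GT (log2 -0.62) and AT4G14090 (-0.50) were lower in sid2-2, each without a call when 1 or more single 4tga arrays were left out, and the reductase DFR was not called (log2 -0.65, adjusted p = 0.164). Among 5 WRKY factors, WRKY6 was higher (log2 0.52) and WRKY47 lower (-0.54), as was WRKY53 above, and the 3 calls were each lost without certain single arrays. Of 13 beta-glucosidases, BGLU46 alone was called (-0.61, adjusted p of up to 0.202 over the alternatives). The heat shock protein gene AT5G51440 (0.69) and the antenna gene LHCB4.3 (0.74) were each the only called member of 3, and neither kept the call without every single array. ATG8H, of the autophagy membrane protein family ATG8, was higher in sid2-2 at 154, 162 and 203 against 123, 89.9 and 125 (log2 0.62), 1 of 10 autophagy genes. By limma 0 members of the cold, clock, jacalin-related lectin and housekeeping lists were called, and the 5 housekeeping controls lay between -0.06 and 0.20. The sulfur donor gene SUFE2, which belongs to no list and was chosen after its values were seen, was at 700.0, 667 and 847 in sid2-2 and 286, 257 and 211 in 4tga (log2 1.56), and the chitinase family gene AT2G43590, chosen likewise, at 957, 1109 and 1020.5 and 386, 509 and 451 (log2 1.2).

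Of 69 genes encoded in the plastid genome, 6 were called lower in sid2-2 and 0 higher, where 5.13% of all probe sets were called lower. A difference below 0 was measured for 57 of them, mostly without a call, and the median was -0.49 against 0.05 over all genes tested. psbN, a gene of photosystem II assembly, was at 427, 304 and 192 in sid2-2, 779, 1064 and 912 in 4tga and 667, 437 and 457 in wild type, with sid2-2 replicate 3 the lowest (log2 -1.64, SE 0.43, adjusted p = 0.0177, and 0.0867 without that replicate). atpA, of the ATP synthase, was at 1214, 1113 and 941 in sid2-2, 2119, 2195 and 2257 in 4tga and 1747, 1476 and 1628 in wild type (log2 -1.02), and psaA, of photosystem I, at 812, 903 and 1371, 1745, 1677 and 1758 and 1209.8, 1290.3 and 1166 (-0.79). Replicate 3 of sid2-2 was the lowest of the 6 arrays for 35 of the 69 genes, and without it the median was -0.39 and 5 were called lower. The number called ranged from 2 to 32 over the other settings tried. In safener-treated plants the median of the same comparison was -0.15, with 1 gene called higher and 1 lower. Of 11 genes encoded in the mitochondrion, grouped after their values were seen, nad5 (log2 -1.13) and ccb382 (-1.36) were called lower and 0 higher (median -0.44). The nad5 value is from the 2 sid2-2 arrays on which that probe set was listed, and a second nad5 probe set was not called (log2 -0.58, adjusted p = 0.0628). ccb382 was not called without sid2-2 replicate 3, without 4tga replicate 1, 2 or 3, or with an intensity trend and robust eBayes (adjusted p of up to 0.143). Labelling was primed with oligo-dT, per the labels' protocols, and its part in the levels of organelle transcripts was not tested.

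A run of neighbouring genes on chromosome 1 was lower in sid2-2 than in 4tga. The run was chosen after the values were seen, from the difference along the gene order of the RefSeq table (assembly TAIR10.1). It covers the 58 protein-coding genes from AT1G21560 to AT1G22060 and ends beside TGA3 (AT1G22070), a gene disrupted in 4tga. Of 20 probe sets tested there, for 18 genes, 18 were called lower in sid2-2 and 0 higher, with a median of -0.84 (1.79-fold higher in 4tga). Over all probe sets 5.13% were called lower, but nothing is read from this count, since the run was drawn around its members. Among the 20 genes on each side 14 probe sets were tested, 1 lower and 1 higher, with a median of 0.06.

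AT1G22060, nearest to TGA3 among the genes tested, differed most. It was at 185, 202 and 178 in sid2-2 and 206, 226 and 256 in wild type against 636, 690.1 and 664 in 4tga (log2 between mutants -1.82, SE 0.10, 3.53-fold, adjusted p = 1.18e-10). AT1G21830, with 2 probe sets, was at 96.9, 92 and 93.1 in sid2-2 and at 209, 232 and 244 in 4tga on the first (log2 -1.28), and gave -0.67 on the second. The zinc finger gene AT1G21580 gave -1.60 and -0.67 on its 2 probe sets. SECA2, a protein translocase motor of the plastid, was at 85.2, 81.7 and 84.3 in sid2-2, 169, 144 and 155 in 4tga and 58.6, 69.5 and 63.7 in wild type (log2 between mutants -0.89). AT1G21630 was at 334, 341 and 371 in sid2-2, 688, 663 and 705 in 4tga and 300.1, 364 and 375 in wild type, so that 4tga alone was high (log2 between mutants -0.98). The exceptions were AT1G21670 (log2 -0.17) and AT1G21680 (0.41), neither called in mock leaves. AT1G21540, before the run in gene order, was listed at 40.6, 49.4 and 44.1 in 4tga and on no sid2-2 or wild type array.

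The comparisons with wild type share arrays with that between the mutants. Side by side, the median of the run was 0.95 for 4tga over wild type, with 16 of 19 probe sets called higher (6.04% of all probe sets in that comparison), and 0.04 for sid2-2 over wild type, with 3 of 19 called (22.7% of all). Safener-treated plants are other samples, and there 16 of the 18 probe sets with a value were called lower in sid2-2 (7.58% of all in that comparison). The median of the 18 was -0.90. AT1G21680 was called in the opposite direction, higher in safener-treated sid2-2 (log2 0.99, limma adjusted p = 0.00089), and AT1G21670 was not called (0.04). Among the 50 genes on each side of the other disrupted genes, calls in the mock comparison were 0 of 24 probe sets at TGA2, 0 of 23 at TGA5, 1 higher and 2 lower of 39 at TGA6, and 6 higher and 1 lower of 42 at ICS1. Of all probe sets of 1 gene, 5.82% were called higher and 4.60% lower. Genes blank in a mutant, such as TRZ1 beside ICS1, had no test and are not in these counts.

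**Figure D4:**
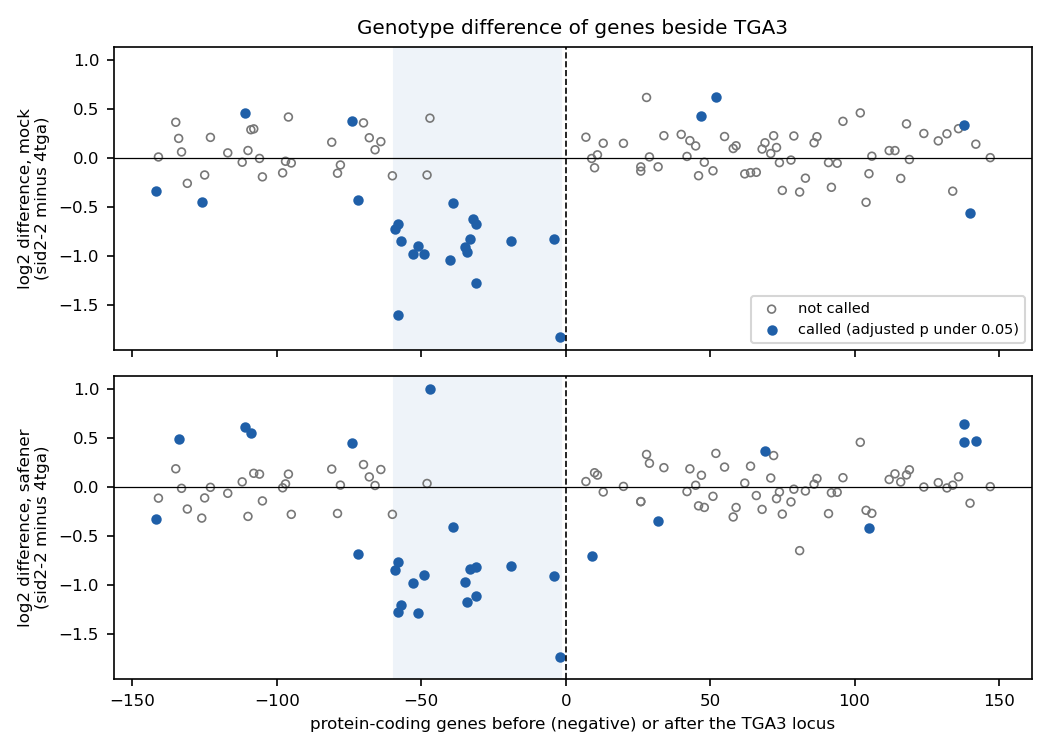
Log2 difference between sid2-2 and 4tga in mock (upper panel) and safener-treated plants (lower panel) by position in the order of protein-coding genes, counted from the TGA3 locus at 0. Filled points are called at an adjusted p under 0.05, open points are not, and the shaded span marks the 58 genes of the run. In both panels most points in the span lie near the run's medians of -0.84 and -0.90, and most points outside it lie near 0.

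Genes with values in a single mutant were counted apart, since they have no log2 difference. On all 3 sid2-2 and no 4tga array 72 probe sets were listed, 43 of them with 1 gene, and on all 3 4tga and no sid2-2 array 49, with 27 of 1 gene. Most were dim, with a median of mean intensities of 41.1 and 38.9. Besides the detoxification genes above, ATSBT5.2, a subtilisin-like protease gene, was listed at 211, 200.1 and 259.8 in sid2-2 and at 168, 187 and 144 in wild type. On the 4tga side the brightest were ATIM, a homologue of timeless (119, 107 and 105, and 105, 148 and 126 in wild type), and TRZ1, a tRNase Z (91.5, 96.4 and 82.4, and 101, 59 and 73.7 in wild type). AT3G01410 (83.6, 83 and 67.4) and AT1G65510 (64.5, 54.7 and 66.9) followed. With safener 19 of the 72 and 4 of the 49 were again listed on all arrays of the same mutant and on none of the other, among them GSTU25, UGT73B4, UGT73B1 and ATSBT5.2. TRZ1 was not, being listed on all safener-treated sid2-2 arrays (27 to 34.5), below safener-treated 4tga (64.8 to 71.2). Its locus, AT1G74700, has the number next to that of ICS1 (AT1G74710), the gene disrupted in sid2-2. Whether this position bears on its level was not tested.

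The same genotypes were measured again, on other arrays, in safener-treated plants. There 15.5% of 15072 probe sets were called between sid2-2 and 4tga, 7.90% higher and 7.58% lower. Of the 916 probe sets higher in mock sid2-2, 892 had a safener value, 93.5% with the same sign and 54.8% also called, while 4 were called in the opposite direction. Of the 787 lower ones, 763 had a value, 95.4% with the same sign and 63.3% called, with 3 called opposite. Over all 14810 probe sets tested in both, 74.2% had the same sign. Calls of at least 2-fold recurred, with 80 of 87 (92.0%) called again among the higher and 73 of 90 (81.1%) among the lower. The treatments share the fit and its estimate of spread, and not the arrays.

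AT4G13180 was at 1409.8, 1481 and 1374 in safener-treated sid2-2 and 72.9, 69.6 and 74.1 in safener-treated 4tga (log2 4.3, against 4.07 with mock). The 6 arrays again did not overlap. OCT5 (log2 4.56), EXLB1 (3.19), AT1G09500 (3.66), UGT73B5 (2.69), AT5G61820 (2.13) and AT4G01870 (1.56) were called in the same direction, as were all 13 of the 15 largest named increases that had a safener value. AER was listed on 1 safener-treated 4tga array at 66.2 and at 923, 933 and 812 in safener-treated sid2-2, and was not tested. cwINV6 was at 24.5, 33.9 and 34.3 in sid2-2 and 169, 156 and 157 in 4tga after safener (log2 -2.40), and 12 of the 13 largest named decreases with a value were called again, ccb382 (log2 -0.37) being the exception. The salicylic acid responsive genes AT3G28540 (-1.18), AT1G35710 (-1.37), SAL2 (-1.36) and WRKY53 (-0.91) were again lower in sid2-2.

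**Figure D5:**
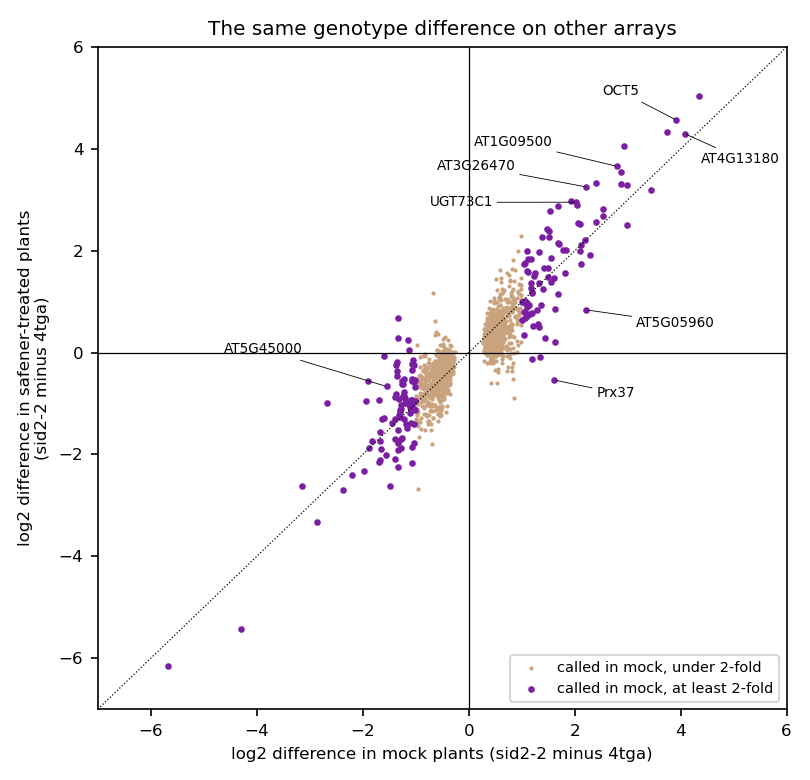
Log2 difference between sid2-2 and 4tga in mock plants (x axis) and in safener-treated plants (y axis) for probe sets called in mock plants and tested in both, each difference from 3 against 3 arrays. Purple points are called in mock at 2-fold or more, brown points at less, and the dotted line marks equal differences. AT5G05960 and Prx37 lie below the line, at log2 2.21 and 1.62 with mock against 0.84 and -0.54 with safener.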

How the data were processed

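RNA of rosette leaves was hybridized to 18 ATH1 arrays, 3 per group, and 6 arrays were compared here. The values deposited by the authors are linear intensities, 1 for each probe set of an array. RMA is named in the submitters' processing notes, without a version. The deposited values had a median of 200 on each array and 31.5% blanks, and other steps are not given in the sources used here. Controls (64 of 22810 rows) were left out and listed values converted to log2 without rescaling. Of the deposited columns 0 were left out.

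limma 3.58.1 (R 4.3.3; lmFit and eBayes, 6 group means) gave the mock contrast, the safener contrast, their difference and each mutant against wild type. Probe sets with at least 2 listed values in each group were tested, with Benjamini-Hochberg adjustment over all of them. The fit was tested on simulated data. Genes were named through the platform annotation and RefSeq: the probe sets tested included 8372 with 1 gene, 316 with several and 6652 with no entry. Named genes are the 15 largest non-overlapping calls in each direction, list members with the smallest p-values and all called, and the brightest 4 listed in 1 mutant only. Others are stated as chosen after their values were seen. The members and the 36 lists and families were chosen with earlier results of these data known. Of these, 7 had 0 members tested: the TGA factors, the senescence and flower markers, ERF factors, cysteine-rich receptor kinases, the HSP symbol family and aquaporins. Listed genes that the annotation does not name, and promoter sequences, were not analysed here. Alternatives tried were normalization, filters, a pseudocount of 16, array weights, fewer arrays, a replicate block and leaving out each array.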

Additional observations from a re-analysis of the deposited data

Results flagged for a closer look

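For 14 of the named genes the difference between sid2-2 and 4tga itself differed between safener-treated and mock plants, by the interaction term of the limma model with Benjamini-Hochberg adjustment over 14810 probe sets, of which 112 (0.756%) were called. The values below are the log2 difference with safener minus that with mock. The RPW8 domain gene AT3G26470 (1.03) and the glucosyltransferase genes UGT73C1 (0.92), IAGLU (1.04) and UGT74D1 (1.2) had larger differences with safener in the direction seen with mock, and IAGLU went from 168, 166 and 145 to 577, 643 and 718 in sid2-2. GRX480 (1.28) and UGT76B1 (1.37), not called between the mock mutants, were higher in safener-treated sid2-2. UGT76B1 stood there at 271, 254 and 261 against 97.6, 107 and 103 in 4tga.

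The difference of AT5G45000 (0.89) was smaller with safener, and so was that of AT5G05960 (-1.37), which stood at 96.2, 80.8 and 78.3 in safener-treated sid2-2. Both genes were named for the size of their mock difference, which the interaction term subtracts. That choice by itself favours a smaller difference with safener. The neighbouring peroxidase genes Prx37 (-2.16) and AT4G08780 (-1.41), chosen after their values were seen, were higher in mock sid2-2 and not called with safener. Mean Prx37 was 114 with mock and 407 with safener in 4tga, and 367 and 288 in sid2-2. For AT4G08780 these means were 35.8 and 58.6 in 4tga and 119 and 68.3 in sid2-2. Mock sid2-2 replicate 3 was the highest array for both, and the term was not fitted without it. UGT72E1 (-1.03) changed from higher to lower in sid2-2, with log2 0.43 and -0.60. The jacalin-related lectins JAL34 (-0.99) and JAL23 (-1.46) and the thionin THI2.1 (-1.88) were not called with mock and lay lower in sid2-2 with safener. THI2.1 was at 76.1, 72.4 and 54.6 in safener-treated sid2-2 and 361, 275 and 227 in safener-treated 4tga.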

How the results depend on the processing

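The comparison was repeated under 16 other settings. Counts of probe sets higher and lower in sid2-2, 916 and 787 as reported, were 515 and 608 with the 6 mutant mock arrays alone, 649 and 716 with the 9 mock arrays, 828 and 1015 after median centring, 838 and 670 after quantile normalization, and 2693 and 1967 with array weights, whose estimation stopped before its tolerance and which gave sid2-2 replicate 3 a weight of 0.215. The share of calls that were higher, 53.8% as reported, was 44.9% after median centring. When 1 array was left out the higher calls ranged from 486 (without 4tga replicate 1) to 1069 (without sid2-2 replicate 1) and the lower calls from 478 to 810. Calls of at least 2-fold stayed between 76 and 114 higher and between 75 and 118 lower over all settings. Probe sets listed in sid2-2 only, 72 on all arrays, numbered 260 when 2 arrays sufficed and 84 to 196 with 1 array left out. Those listed in 4tga only, 49, numbered 144 and 67 to 110. Of 103 named or neighbouring probe sets called, 76 kept the call under every setting that gave a value, 27 lost it when some single array was left out, and 0 reversed. Mock samples of the mutants with the same replicate number showed no steady tendency to deviate together (r = -0.16, 0.16 and -0.06 over 14593 probe sets). These values rest on deviations from means of 3 arrays, so they cannot decide whether the numbers mark a shared day or batch. With a replicate block 853 probe sets were higher and 774 lower. With 3 arrays a group and blanks for dim probe sets, smaller differences and levels near background are the least certain.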
